A study of Mus musculus with 2 samples.

Results

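The choroidal mural cells described here were 65 of 8331 barcodes kept from 2 single-cell RNA libraries of mouse retinal pigment epithelium (RPE) and choroid, the vascular layer under it. A barcode was kept with at least 500 detected genes and at most 25% mitochondrial counts. Levels per cell are given as CP10K, the UMI count of a gene per 10000 UMIs of that barcode. A member had at least 40 CP10K summed over Acta2, Tagln, Myh11 and Rgs5, at least 3 CP10K of Myh11 plus Rgs5, less than 30 CP10K of the fibroblast genes Dcn plus Lum, and less than 100 CP10K summed over the RPE genes Rpe65, Rlbp1, Rgr, Lrat and Rdh5. The members were thus chosen by measured UMI counts, and the levels of these 11 genes in them are a description.

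The NaIO3 library came from C57BL/6J mice 7 days after an intravenous injection of sodium iodate at 20 mg/kg, an oxidant toxic to the RPE. The PBS library came from C57BL/6J mice given the same volume of phosphate-buffered saline and taken after 7 days. Eyes of 6 mice were pooled per group, so each group is 1 library and no test between groups was possible. Brown hexagonal cells were picked under the microscope before loading, so the collection aimed at the RPE. All intervals below are 95% intervals that cover counting error only, not differences between mice or preparations.

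Mural cells are the cells that wrap blood vessels. Smooth muscle cells surround arteries and arterioles and contract through actin, smooth muscle myosin and their regulators, while pericytes sit on capillaries inside the basement membrane and carry Rgs5, Pdgfrb, Notch3 and a potassium channel built from Kcnj8 and Abcc9. In the choroid both kinds lie on vessels that feed the photoreceptors and the RPE.

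The NaIO3 library held 2 members among 3944 kept barcodes (0.0507%, exact interval 0.00614 to 0.183%), and the PBS library held 63 among 4387 (1.44%, 1.11 to 1.83%). The lowest depth of a barcode differed between the libraries. The shallowest NaIO3 barcode had 4217 UMIs and the shallowest PBS barcode 2979, and 47 of the 63 PBS members lay below 4217 UMIs. Over barcodes with at least 4217 UMIs, a limit added after the data were seen, the NaIO3 share stayed at 2 of 3944 and the PBS share was 16 of 3850 (0.416%, 0.238 to 0.674%). The limit sets a common lower bound and does not match the depths above it. Other stromal classes are used below for comparison, and the genes of the rule also limit them. Fibroblast-rule barcodes had at least 30 CP10K of Dcn plus Lum, less than 100 CP10K of the RPE genes and less than 3 CP10K of Myh11 plus Rgs5. They numbered 23 in NaIO3 and 159 in PBS, and with at least 4217 UMIs 23 in NaIO3 and 56 in PBS. Endothelial-rule barcodes had at least 10 CP10K summed over Pecam1, Cdh5, Egfl7, Emcn and Plvap, less than 40 CP10K of the 4 summed member genes, and the limits on Dcn plus Lum and on the RPE genes. They numbered 11 in NaIO3 and 37 in PBS, and with at least 4217 UMIs 11 in NaIO3 and 18 in PBS. Fewer cells in the tissue and fewer cells recovered from it cannot be told apart here.

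**Figure D1:**
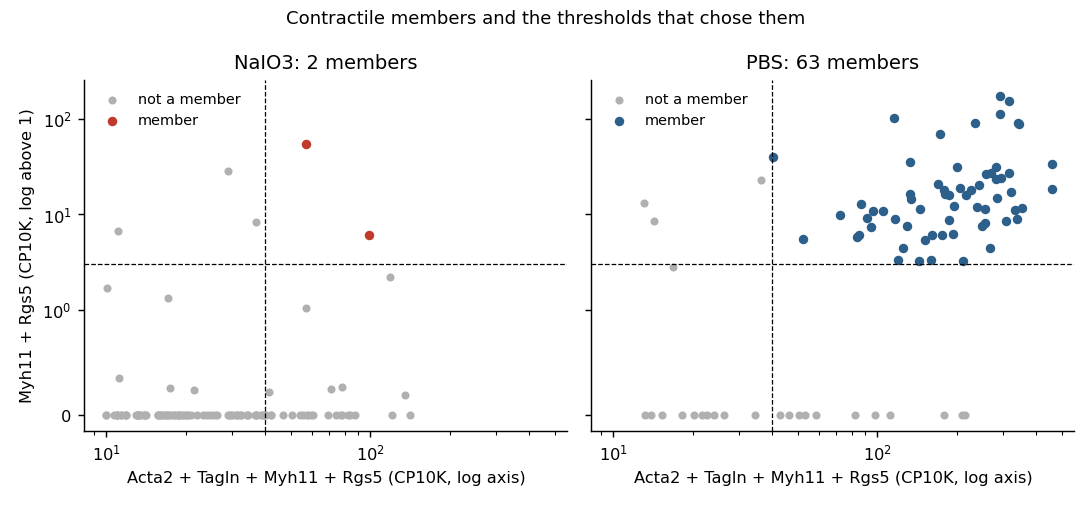
Kept barcodes that met the Dcn plus Lum and RPE limits, with the summed CP10K of Acta2, Tagln, Myh11 and Rgs5 on the x axis (log) and Myh11 plus Rgs5 on the y axis (log above 1), NaIO3 left and PBS right, and dashed lines at the thresholds of 40 and 3. The 2 NaIO3 members lie apart from each other, and the 63 PBS members fill the upper right corner.

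The 2 NaIO3 members had 5771 and 4973 UMIs, and the PBS members had between 2996 and 8143 with a median of 3650. PBS barcodes rich in RPE genes (RPE-rule, at least 100 CP10K of the RPE genes and less than 40 CP10K of the 4 summed member genes) had a median of 11491 UMIs. None of the NaIO3 members and 1 of the PBS members fell in the share of barcodes with the highest doublet scores. The libraries shared 24 barcode sequences, and no member had one of them. In PBS, the member nearest to the first threshold had 40.2 CP10K and the best barcode that failed only this limit 36.2. The nearest values for Myh11 plus Rgs5 were 3.25 CP10K inside and 0 outside, for Dcn plus Lum 27.4 inside and 30.8 outside, and for the RPE genes 96.7 inside and 110 outside. In NaIO3 the nearest values inside and outside were 57.2 and 37.1 CP10K for the summed genes and 6.03 and 2.21 CP10K for Myh11 plus Rgs5. The limit on Myh11 plus Rgs5 alone kept out 26 barcodes in NaIO3 and 11 in PBS, which are described last.

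The members were first described by the genes that chose them. Acta2, the alpha actin of smooth muscle, had 1 UMI in NaIO3 member 1 and 28 in NaIO3 member 2, against 0 to 288 CP10K with a median of 95.6 in the PBS members, where 62 of 63 cells had it. NaIO3 member 2 stood at 56.3 CP10K, inside the PBS range and under its median. Tagln, which codes for the actin-binding transgelin, had 0 UMIs in NaIO3 member 1 and 18 in NaIO3 member 2, against a PBS median of 75.6 CP10K. Myh11, the smooth muscle myosin heavy chain, had 0 UMIs in NaIO3 member 1 and 3 in NaIO3 member 2, while 62 of the 63 PBS members had it, with a median of 11.3 CP10K and a highest value of 33.7. Rgs5, a regulator that switches off G protein signals and marks pericytes, ran the other way. It had 32 UMIs in NaIO3 member 1 and 0 in NaIO3 member 2, against a PBS median of 0 with a highest value of 154 CP10K, and only 18 of the 63 PBS members had a UMI. Of the 300 Rgs5 UMIs in PBS members, 290 lay in 10 cells with at least 13 each. Most members therefore entered through contractile genes and a few through Rgs5.

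The label was checked on 11 mural markers the rule did not use. In PBS members the smooth muscle markers were broad and the pericyte markers sparse. Myl9, the regulatory light chain of smooth muscle myosin, was in 63 of 63 PBS members, against 12.6% of RPE-rule barcodes, and after every cell was thinned to 2500 UMIs in 63 of 63, against 3.01% of RPE-rule barcodes. Lmod1, an actin filament nucleator, was in 54 members and in 22.3% of RPE-rule barcodes, Cnn1 (calponin) in 51 and 1.27%, and the intermediate filament gene Des in 35 and 1.19%. Notch3, the receptor that defines mural cells among the markers of the label, was in only 14 of 63 members (22.2%, 12 cells after thinning) and in 0.938% of RPE-rule barcodes. Mcam was in 25 members and Pdgfrb, the receptor for platelet-derived growth factor B, in 14. Cspg4 was in 9 and Higd1b in 7. Kcnj8 was in 2 members (3.17%), against 8.44% of the deeper RPE-rule barcodes, and after thinning in 1 member (1.59%), against 1.52% of RPE-rule barcodes. Abcc9 was in 0 of 63 members, which allows a share of cells with a UMI of up to 4.76%. Contractile markers were thus broad, while Notch3 and the defining pericyte markers were at or near 0 in most members, so the markers bear out the label of mural cells only in part. The cells are called members below.

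**Figure D2:**
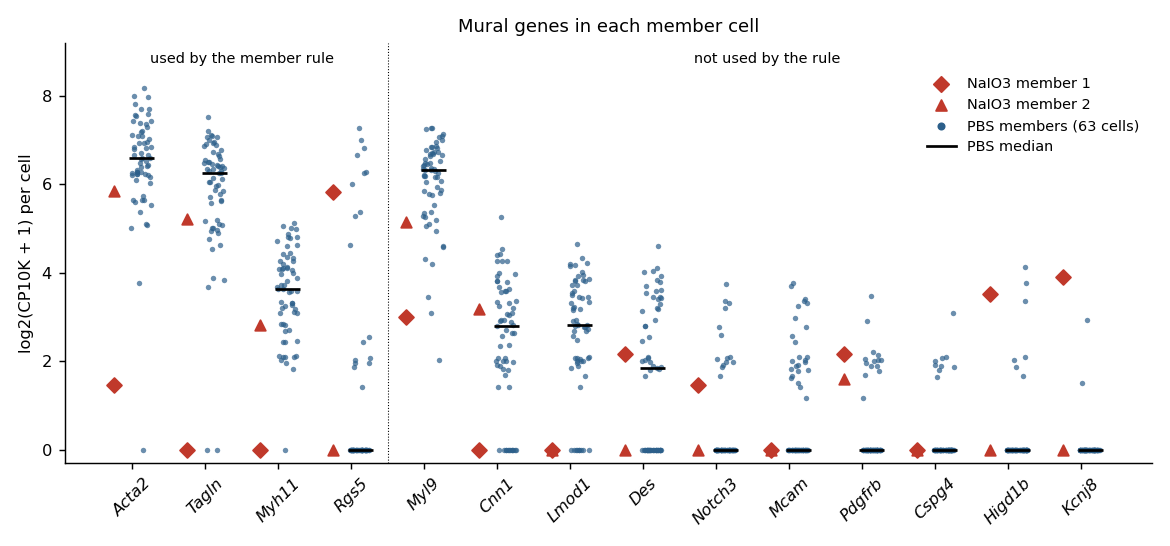
Level of 14 mural genes in each member as log2(CP10K + 1), with NaIO3 members as red diamonds (member 1) and triangles (member 2), left of the 63 PBS members in blue, black bars for PBS medians, and a dotted line between genes the rule used and did not use. NaIO3 member 1 stands high for Rgs5, Higd1b and Kcnj8 and at or near 0 for Tagln and Myh11, while NaIO3 member 2 and most PBS members carry Acta2, Tagln, Myh11 and Myl9.

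Endothelial, lymphocyte, mast cell and dividing-cell markers were at or near 0 in the PBS members, while RNA of the RPE was found in every member and that of rods in many. Of the 7 endothelial markers, Pecam1, Cdh5 and Egfl7 had no UMI, and the list summed to 48.9 CPM (UMIs per 1000000 UMIs of the summed cells) in the members, against 8177 CPM in PBS endothelial-rule barcodes, which were chosen on such genes. No member exceeded 5.03 CP10K for that list. Of the 7 fibroblast markers, the rule limited Dcn and Lum, and Col1a1 stood at 24.4 CPM in members, against 1877 CPM in fibroblast-rule barcodes. No UMI of the 5 measured lymphocyte, 4 mast cell or 5 dividing-cell markers was found. Of the 7 macrophage markers 6 had UMIs, at 114 CPM summed in members, against 208 CPM in fibroblast-rule barcodes. Muller glia markers summed to 819 CPM in members, 1358 CPM in fibroblast-rule and 664 CPM in endothelial-rule barcodes. Erythrocyte markers summed to 684 CPM in members, against 600 CPM in fibroblast-rule and 516 CPM in endothelial-rule barcodes. Melanocyte markers summed to 187 CPM, surface epithelium to 175 CPM, and Schwann cell and skeletal muscle markers to 32.6 CPM each in members. Ttr, made by the RPE, stood at 10586 CPM in members, close to the 11287 CPM of fibroblast-rule and 8860 CPM of endothelial-rule barcodes, and far under the 93680 CPM of RPE-rule barcodes. Gnat1, the transducin subunit of rods, was in 36 of 63 members at 538 CPM, against 274 CPM in fibroblast-rule, 315 CPM in endothelial-rule and 162 CPM in RPE-rule barcodes. The part of this RNA in the results below was not tested. These values are drawn by class in the heat map of summed levels.

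**Figure D3:**
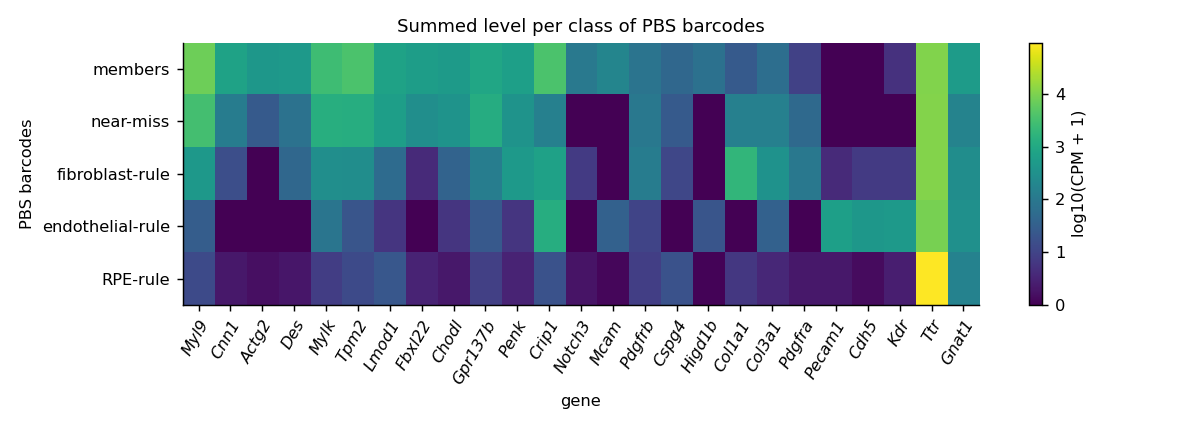
Summed level of 25 genes in 5 classes of PBS barcodes, as colour on a log10(CPM + 1) scale, with members in the top row. Myl9, Cnn1, Actg2, Des and Fbxl22 are brightest in the members and dark in endothelial-rule and RPE-rule barcodes, Pecam1 and Cdh5 are at 0 in the members, and Ttr is bright in every class.

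The contractile machinery was the leading programme of the PBS members. Of the 30 genes of the contractile list, all had UMIs in PBS members, and 28 had enough counts for a ratio. Enough counts meant an expected 20 counts in the smaller set at the higher of the 2 levels. A gene could thus enter this and every such count below through the set where it was higher. For all 28 contractile genes the interval of the ratio of PBS members over other kept PBS barcodes lay wholly above 2. Of all 2357 genes with enough counts, 23.1% did so and 11.3% lay wholly below 0.5. The list holds Acta2, Tagln and Myh11 of the rule, and without them the count was 25 of 25. The rule chose the members on this contrast, so these counts are only a description. The 20 genes with the highest lower bound of that ratio, among genes with at least 100 counts in the members, were led by contractile genes. Actg2, the gamma actin of smooth muscle, was at 436 CPM (357 to 527) in the members and in 36 cells, with a ratio of 621 (420 to 937). Cnn1 was at 729 CPM with a ratio of 418 (321 to 546), and Myl9 at 7556 CPM (7216 to 7907) with a ratio of 311 (289 to 335). Mylk, the kinase that phosphorylates Myl9, was at 2705 CPM and in all 63 members, with a ratio of 162 (146 to 180). Tpm2 and Tpm1, tropomyosins that lie along actin filaments, were at 3702 and 2501 CPM. Des, Lmod1, Pcp4l1 and Mustn1 also stood among the 20, with 485, 737, 546 and 1287 CPM.

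The other genes of the 20 were not parts of the contractile list. Sparcl1, a secreted matricellular protein, was at 1246 CPM in members, against 268 CPM in endothelial-rule and 38.1 CPM in fibroblast-rule barcodes. Fbxl22, an F-box protein of striated and smooth muscle, was at 578 CPM in members and at 2.93 CPM in fibroblast-rule barcodes. Ltbp1, which stores latent TGF-beta in the matrix, was at 436 CPM in members and at 76.3 CPM in fibroblast-rule barcodes. Penk, the precursor of enkephalin peptides, was at 639 CPM in members and at 471 CPM in fibroblast-rule barcodes, so it did not set the members apart from them. Chodl, a membrane protein with a lectin domain, was at 505 CPM, and Gpr137b, a lysosomal membrane protein, at 868 CPM. Crip1, a small LIM domain protein, was at 3641 CPM but in only 35 of the 63 cells. Fxyd1, Lhfp and Prkcdbp completed the set, and Prkcdbp, a caveolar protein, was at 973 CPM in members and at 994 CPM in endothelial-rule barcodes.

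The pericyte list holds Rgs5 of the rule. Without it, 10 of 11 genes with enough counts lay wholly above 2 against other PBS barcodes, where 23.1% of all genes did, and 5 of 12 against fibroblast-rule barcodes, where 7.49% of all genes did. These contrasts chose the members, so the counts are a description. Gja4, Higd1b, Ndufa4l2 and Ebf1 of that list stood at 224, 69.2, 106 and 106 CPM in members.

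The members were also set beside the other vessel and stromal classes, contrasts that the rule used through Acta2, Tagln, Myh11, Rgs5, Dcn and Lum. Against fibroblast-rule barcodes of the same library, 27 of the 28 contractile genes with enough counts had the interval of the ratio wholly above 2, where 7.49% of all 2375 genes did so and 7.28% lay wholly below 0.5. Against endothelial-rule barcodes 23 of 27 did so, where 7.8% of all 2256 genes did and 12.5% lay wholly below 0.5. Without Acta2, Tagln and Myh11 the counts were 24 of 25 against fibroblast-rule and 20 of 24 against endothelial-rule barcodes. Tpm2 was at 3702 CPM in members, 271 CPM in fibroblast-rule and 19.1 CPM in endothelial-rule barcodes.

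Promoter windows were searched because many contractile genes are known to carry a CArG box, the site bound by serum response factor with its partner myocardin. The CArG box was searched in the 250 bases before the start of each gene in RefSeq promoter windows of GRCm38.p6. The box reads the same on both strands, so 1 search covers both, and a window was counted as exact or with up to 1 mismatch in its central A or T bases. Overlapping boxes were allowed. Of the 30 contractile genes, 25 had a window, 4 had an exact box and 7 a box with up to 1 mismatch. Tagln and Myh11 of the rule had no window, and Cnn1, Des, Mylk and Lmod1 held no box in theirs. By windows the contractile list had an exact box in 5 of 30 (16.7%) and the pericyte list in 0 of 23, against 482 of all 32851 windows (1.47%). Windows can overlap, and 1 exact box of Ldb3 in the contractile list lies in overlapping windows and was counted in each. With up to 1 mismatch the contractile share was 26.7%, the pericyte share 4.35% and the share of all windows 8.59%. A match describes letters in this window, not binding. The windows below are those of Myl9 (chr2:156775214-156775463, plus strand), Fbxl22 (chr9:66514594-66514843, minus strand), Acta2 (chr19:34255374-34255623, minus strand) and Crip1 (chr12:113151762-113152011, plus strand), 5′ to 3′ on the strand of the gene, with boxes of up to 1 mismatch in capitals.
Myl9: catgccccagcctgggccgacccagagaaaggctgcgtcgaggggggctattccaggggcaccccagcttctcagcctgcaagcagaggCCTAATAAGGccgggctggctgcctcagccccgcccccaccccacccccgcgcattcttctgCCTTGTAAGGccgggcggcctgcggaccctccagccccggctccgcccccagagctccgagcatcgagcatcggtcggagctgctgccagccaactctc
Fbxl22: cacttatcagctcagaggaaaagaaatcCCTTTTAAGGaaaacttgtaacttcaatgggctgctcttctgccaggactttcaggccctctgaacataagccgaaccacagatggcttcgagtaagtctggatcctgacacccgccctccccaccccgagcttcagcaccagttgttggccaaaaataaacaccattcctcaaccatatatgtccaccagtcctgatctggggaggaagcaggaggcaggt
Acta2: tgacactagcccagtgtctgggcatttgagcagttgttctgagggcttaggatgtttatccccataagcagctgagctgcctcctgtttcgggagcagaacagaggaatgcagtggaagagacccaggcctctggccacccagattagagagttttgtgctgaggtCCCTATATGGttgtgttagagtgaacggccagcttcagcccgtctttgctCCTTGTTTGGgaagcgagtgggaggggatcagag
Crip1: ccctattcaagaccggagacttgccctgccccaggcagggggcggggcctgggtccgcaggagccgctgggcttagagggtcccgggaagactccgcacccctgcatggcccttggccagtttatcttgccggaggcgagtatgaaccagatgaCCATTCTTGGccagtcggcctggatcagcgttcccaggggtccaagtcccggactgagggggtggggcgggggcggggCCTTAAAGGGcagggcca
Myl9 held 2 boxes, of which 1 was exact, and they began 161 and 99 bases before the start. The exact box of Fbxl22 began 222 bases before the start. Acta2 and Crip1 each held 2 boxes with a mismatch and no exact box in these windows.

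Genes that move calcium and set membrane voltage were described next. Of 43 genes of the ion channel and calcium list, 12 had enough counts, 8 lay wholly above 2 against other PBS barcodes, where 23.1% of all genes did, and 1 lay wholly below 0.5, where 11.3% did. A further 7 had no UMI in members. Atp2a2, the calcium pump of the sarcoplasmic reticulum, was at 293 CPM in members and at 45.5 CPM in RPE-rule barcodes. Pln, which inhibits that pump, was at 196 CPM in members and at 0.262 CPM in RPE-rule barcodes, with no UMI in fibroblast-rule or endothelial-rule barcodes. Kcnmb1, a subunit of the calcium-activated potassium channel of smooth muscle, was at 93.7 CPM in members and at 0.0655 CPM in RPE-rule barcodes. Casq2, which binds calcium in the reticulum, was also at 93.7 CPM. Gja4 (connexin 37) was at 224 CPM in members and at 129 CPM in endothelial-rule barcodes.

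Receptors and enzymes of vessel tone were measured at low levels. Of 50 genes in that list, 7 had enough counts and 17 had no UMI. Against other PBS barcodes 5 of the 7 lay wholly above 2, where 23.1% of all genes did. The other 2 lay wholly below 0.5, where 11.3% of all genes did. Ramp1, a subunit of the receptor for calcitonin gene-related peptide, was the highest at 314 CPM (77 UMIs in 37 cells), against 0.917 CPM in RPE-rule barcodes. Pde5a and Pde3a, enzymes that break down cyclic nucleotides, were at 253 and 208 CPM. Gucy1a3, a subunit of the nitric oxide receptor guanylate cyclase, was at 196 CPM. Agtr1a, Ednrb, Adra1d and Htr2a were among the 17 genes without a UMI. At 245513 member UMIs a count of 0 allows levels of up to 12.2 CPM.

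Notch genes were sparse. Of 17 Notch pathway genes, 4 had enough counts and 2 lay wholly above 2 against other PBS barcodes, where 23.1% of all genes did. Hes1, a target gene, was at 196 CPM in members and at 102 CPM in RPE-rule barcodes. The ligand Jag1 was at 106 CPM in members and the receptor Notch2 also at 106 CPM. Notch3 was at 102 CPM (65.9 to 150) in members, against 5.87 CPM in fibroblast-rule and 0.83 CPM in RPE-rule barcodes. The targets Heyl and Hey2 were in 7 cells each, and Notch4, Dll4, Jag2 and Mfng had no UMI. Of the 27 vessel growth factor genes, 5 had enough counts against other PBS barcodes. Of these 2 lay wholly above 2, where 23.1% of all genes did, and 1 wholly below 0.5, where 11.3% did. With 4 Notch and 5 growth factor genes, the counts are too few to be compared with these shares. Pdgfa was at 126 CPM in members and at 134 CPM in RPE-rule barcodes. Pdgfb and Tek had no UMI. Vegfa, the main growth factor of vessels, was at 36.7 CPM in members and at 168 CPM in RPE-rule barcodes.

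Basement membrane genes were present in PBS members, and most interstitial matrix genes were lower than in fibroblast-rule barcodes. Of 25 basement membrane genes, 9 had enough counts against other PBS barcodes. Of these 6 lay wholly above 2, where 23.1% of all genes did, and 1 wholly below 0.5, where 11.3% did. Nid1 was at 220 CPM in members and at 122 CPM in fibroblast-rule barcodes, and Col4a1 at 143 CPM in members, 48.4 CPM in fibroblast-rule and 177 CPM in endothelial-rule barcodes. Of 45 interstitial matrix and elastic fibre genes, 34 had enough counts against fibroblast-rule barcodes. Of these 22 lay wholly below 0.5, where 7.28% of all genes did, and 1, Ltbp1, wholly above 2, where 7.49% did. Fibroblast-rule barcodes were chosen on the matrix genes Dcn and Lum, which the member rule limited, so these counts are only a description. Mgp, an inhibitor of calcification, was at 1568 CPM in members and at 4905 CPM in fibroblast-rule barcodes. Eln, which codes for elastin, was at 159 CPM in members, 186 CPM in fibroblast-rule and 225 CPM in endothelial-rule barcodes. Of 6 integrin and cadherin genes with enough counts against other PBS barcodes, 3 lay wholly above 2 and 2 wholly below 0.5. The shares over all genes were 23.1% above and 11.3% below. Itga8, an integrin subunit of smooth muscle, was at 114 CPM in members and at 19.1 CPM in fibroblast-rule barcodes.

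Transcription factors known from mural cells and their mesenchyme were detected together with the contractile genes. Of 37 genes in the mural transcription factor list, 14 had enough counts, 12 lay wholly above 2 against other PBS barcodes, where 23.1% of all genes did, none lay wholly below 0.5, and 7 had no UMI. Against fibroblast-rule barcodes 3 of 15 lay wholly above 2 and none wholly below 0.5, where 7.49% and 7.28% of all genes did. Against endothelial-rule barcodes 4 of 14 lay above and 3 below, where 7.8% and 12.5% of all genes did. The list summed to 5535 CPM in members, 4413 CPM in fibroblast-rule and 7833 CPM in endothelial-rule barcodes. Foxc1, a factor of the mesenchyme around the eye, was in 22 members at 118 CPM, against 120 CPM in fibroblast-rule and 81.2 CPM in endothelial-rule barcodes. Id3, an inhibitor of basic helix-loop-helix factors, was the highest at 1853 CPM, and Klf2, a factor of flow-exposed endothelium, was at 497 CPM in members and at 3680 CPM in endothelial-rule barcodes. Immediate early genes, which respond quickly to many signals, were higher than in other PBS barcodes but not than in endothelial-rule barcodes. Of 27, 16 had enough counts and 15 lay wholly above 2 against other PBS barcodes. Against fibroblast-rule barcodes 3 of 17 lay wholly above 2 and 1 wholly below 0.5, beside the same 7.49% and 7.28% of all genes. Against endothelial-rule barcodes none lay above and 5 of 17 below, beside 7.8% and 12.5% of all genes. The list summed to 5486 CPM in members, 4518 CPM in fibroblast-rule and 11202 CPM in endothelial-rule barcodes. Fos was at 823 CPM in members, 258 CPM in fibroblast-rule and 468 CPM in endothelial-rule barcodes. Interferon and MHC class I genes were lower than in endothelial-rule barcodes. The list summed to 2094 CPM in members, 5210 CPM in fibroblast-rule, 9195 CPM in endothelial-rule and 1834 CPM in other PBS barcodes. Against other PBS barcodes 1 of 7 lay wholly above 2 and none wholly below 0.5. Of 10 with enough counts against endothelial-rule barcodes, 8 lay wholly below 0.5, where 12.5% of all genes did. B2m stood at 342 CPM in members and at 2074 CPM in endothelial-rule barcodes. In a further 5 lists the counts wholly above 2 against other PBS barcodes, where 23.1% of all genes were, came to 3 of 5 IGF binding proteins with enough counts, 1 of 1 chemokine gene, 2 of 4 complement genes, 3 of 4 arrest and p53 genes and 1 of 11 NRF2 target and metallothionein genes, of which 5 lay wholly below 0.5, where 11.3% of all genes did. For mitochondrial and glycolytic genes the count was 3 of 14. Cdkn2a, the arrest gene of p16 and Arf, had no UMI in members.

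The PBS members fell into 2 sets by Crip1, a split noticed in the data and given as a description. Crip1 had 20 to 82 UMIs in 20 cells (Crip1-high) and 0 to 6 UMIs in the other 43 (Crip1-low), and no cell had 7 to 19. Gpr137b had no UMI in any of the 20 Crip1-high members, which allows a share of cells with a UMI of up to 15%, and was in 39 of the 43 Crip1-low members. Depth was similar, with a median of 3438.5 UMIs in Crip1-high and 3756 in Crip1-low members. The median mitochondrial share was 6.31% in Crip1-high and 4.81% in Crip1-low members. Over the 63 cells, Crip1 and Gpr137b as log2(CP10K + 1) had a Pearson r of -0.78 and a Spearman coefficient of -0.68, and Crip1 and Igfbp7 an r of 0.78 and a Spearman coefficient of 0.69. These cells share a library and come from 6 pooled mice, and how the sets divide over mice is unknown.

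**Figure D4:**
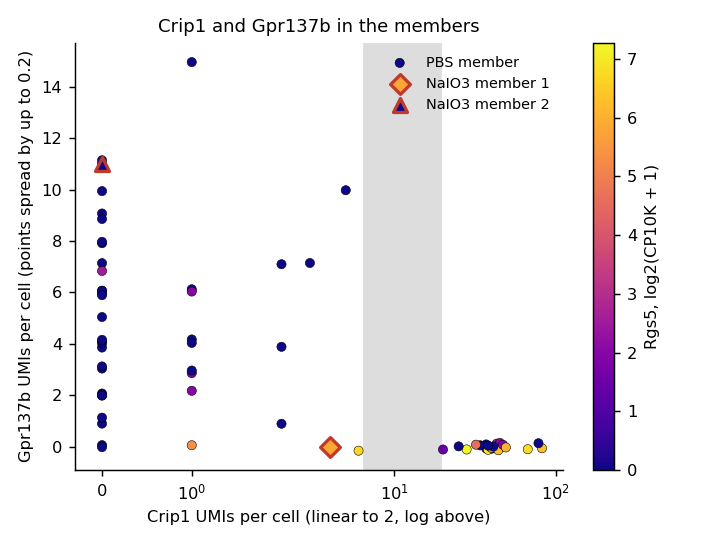
Crip1 UMIs (x axis, linear to 2 and log above) against Gpr137b UMIs (y axis) in each member, coloured by Rgs5 as log2(CP10K + 1), with NaIO3 members outlined in red and grey shading over the empty range of 7 to 19 Crip1 UMIs. The 20 cells right of the gap hold no Gpr137b, NaIO3 member 2 lies with the Gpr137b cells, and NaIO3 member 1 lies near the PBS cells with Rgs5 and little Crip1.

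Rgs5, Notch3, Gja4 and Gucy1a3 lay on the Crip1-high side. Of 631 genes with enough counts, 31 had the interval of the ratio of Crip1-high over Crip1-low members wholly above 2 (4.91%) and 20 wholly below 0.5 (3.17%). Notch3 was at 300 CPM in Crip1-high members (13 of 20 cells) and at 11.8 CPM in Crip1-low members (1 of 43), and after thinning in 11 Crip1-high and 1 Crip1-low cells. Rgs5 was at 3157 CPM in Crip1-high (12 cells) and at 343 CPM in Crip1-low members (6 cells), a ratio of 9.19 (6.88 to 12.5). Ebf1, a transcription factor of stromal cells, was at 313 CPM in Crip1-high members (13 cells) and 11.8 CPM in Crip1-low members (1 cell). Sncg (gamma-synuclein) was at 417 CPM in Crip1-high and 17.8 CPM in Crip1-low members, and Gja4 at 574 CPM in Crip1-high and 65.1 CPM in Crip1-low members. Gucy1a3 was at 496 CPM in Crip1-high and 59.2 CPM in Crip1-low members, and Pln had the same levels as Gucy1a3 in both sets. Errfi1, Nrip2, Rasd1, Cebpb and Cdkn1a were also among the 13 leading genes. Igfbp7, a binding protein for insulin-like growth factors, was in all cells of both sets, at 5257 CPM in Crip1-high and 1481 CPM in Crip1-low members.

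Chodl, Penk, Tfap2b and Sostdc1 lay on the Crip1-low side. Gpr137b was at 0 CPM in Crip1-high and 1261 CPM in Crip1-low members. Chodl was at 0 in Crip1-high and 734 CPM (33 cells) in Crip1-low members, and Penk at 26.1 CPM in Crip1-high and 918 CPM in Crip1-low members. The long non-coding RNA Meg3 was at 52.2 CPM in Crip1-high and 989 CPM in Crip1-low members. Tfap2b, a factor of neural crest cells, was in 5 Crip1-high and 32 Crip1-low members, at 78.3 CPM in Crip1-high and 409 CPM in Crip1-low members. Sostdc1, a secreted antagonist of BMP and Wnt signals, was at 91.3 CPM in Crip1-high and 788 CPM in Crip1-low members, and RPE-rule barcodes held it at 527 CPM. Nid1 was in 1 Crip1-high and 29 Crip1-low members. Dcn, which the rule limited, was at 143 CPM in Crip1-high and 527 CPM in Crip1-low members.

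**Figure D5:**
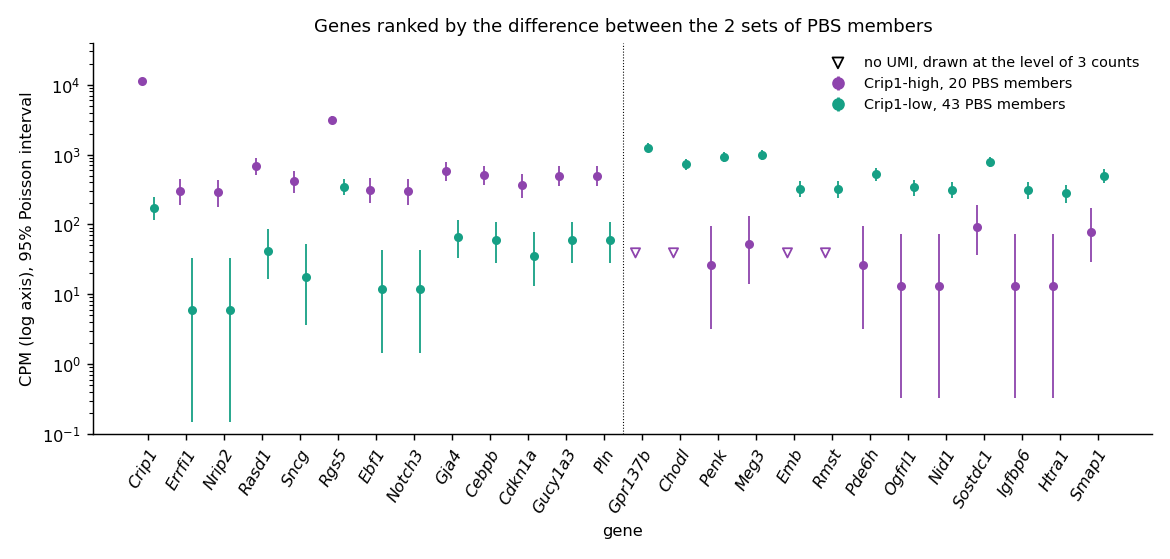
Summed level of the 13 genes that lead each side, ranked by the interval bound nearest to 1, in Crip1-high (purple, 20 cells) and Crip1-low (green, 43 cells) PBS members, as CPM on a log axis with 95% Poisson intervals. Open triangles mark genes without a UMI, drawn at the level of 3 counts, and Gpr137b, Chodl, Emb and Rmst have none in Crip1-high members.

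Contractile genes outside the rule were not set apart from all genes by the intervals of this ratio. Of 19 with enough counts, Pln alone lay wholly above 2, where 4.91% of all 631 genes did. None lay wholly below 0.5, where 3.17% of all genes did. Their median log2 ratio of Crip1-high over Crip1-low members was 0.07, beside -0.08 over all 631 genes. Myl9 was at 7905 CPM in Crip1-high and 7397 CPM in Crip1-low members, and Tpm1 at 2518 CPM in Crip1-high and 2493 CPM in Crip1-low members. Cnn1 was at 444 CPM in Crip1-high and 859 CPM in Crip1-low members, a ratio of 0.516 (0.345 to 0.755), and Mylk at 2022 CPM in Crip1-high and 3014 CPM in Crip1-low members. Of 22 pericyte genes outside the rule, 5 had enough counts. Of these, Notch3, Ebf1 and Gja4 lay wholly above 2, where 4.91% of all 631 genes did, and the median log2 ratio was 3.09. A gene could reach enough counts through the set where it was higher. Notch3 (23 against 2 counts) and Ebf1 (24 against 2) did so through the Crip1-high members. The median of these 5 genes is thus only a description and does not stand for the list. Of 11 immediate early genes, 4 lay wholly above 2, with Fos at 1278 CPM in Crip1-high and 616 CPM in Crip1-low members. Gnat1 was at 835 CPM in Crip1-high and 403 CPM in Crip1-low members, and Gngt1, another rod gene, at 365 CPM in Crip1-high and 598 CPM in Crip1-low members. The member in the doublet share had 20 Crip1 UMIs. The part of rod RNA in the split was not tested.

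Within the 2 sets the pericyte genes were not even. Of the 10 PBS members with at least 13 Rgs5 UMIs, 8 were Crip1-high and also carried Acta2 with 31 to 81 UMIs. The other 2 were Crip1-low without Gpr137b. PBS member 8 had 40 Rgs5, 5 Higd1b, 6 Ndufa4l2, 4 Pdgfrb and 2 Notch3 UMIs with 5 Acta2 and 0 Tagln UMIs. PBS member 35 had 13 Rgs5 UMIs and 0 UMIs of Acta2, Tagln, Myh11 and Higd1b. Across all 65 members, the summed CP10K of 27 contractile and of 22 pericyte genes outside the rule had a Pearson r of -0.10 and a Spearman coefficient of 0.11, both close to 0. Actg2 and Des had a Pearson r of 0.58 and a Spearman coefficient of 0.56 in PBS members. Malat1, Crip1, Rgs5 and Mgp were among the genes that varied most over Poisson counting, of 559 genes with at least 60 counts. The variance of Rgs5 was 33.2 times its Poisson value, against a median of 1.25 over those genes.

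The 2 NaIO3 members were unlike each other, and no sum over them stands for a state of mural cells after NaIO3. NaIO3 member 2 resembled the Crip1-low PBS members. It had 28 Acta2, 17 Myl9, 15 Tpm2 and 4 Cnn1 UMIs, with 11 Gpr137b, 14 Chodl and 3 Tfap2b UMIs and no Crip1 UMI. Its Chodl level of 28.2 CP10K was inside the PBS range of 0 to 33.4, and its Gpr137b level of 22.1 CP10K was inside the PBS range of 0 to 35.2. NaIO3 member 1 carried several pericyte genes. It had 32 Rgs5, 8 Kcnj8, 2 Abcc9, 6 Higd1b, 10 Vtn, 7 Ndufa4l2, 3 Ebf1 and 1 Notch3 UMIs, with 4 Crip1, 1 Acta2 and 0 Myh11 UMIs. It had 2 Pdgfrb and 1 Gja4 UMIs and none of Cspg4, Mcam and Cox4i2. Its Kcnj8 level of 13.9 CP10K was above the highest PBS member at 6.56.

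NaIO3 member 1 also carried endothelial RNA. Its 7 endothelial markers summed to 71.0 CP10K, with 27 Cldn5, 6 Egfl7 and 5 Emcn UMIs, against 0 in NaIO3 member 2 and at most 5.03 CP10K in any PBS member. The same list stood at 7538 CPM in NaIO3 endothelial-rule barcodes and at 8177 CPM in PBS endothelial-rule barcodes. CP10K and CPM have different scales. In the same unit, the level of NaIO3 member 1 was close to these levels and slightly under both. The Egfl7 level of NaIO3 member 1, 10.4 CP10K, alone reached the endothelial-rule limit of 10 CP10K. Its Pecam1 count was 0, and its doublet score was outside the highest share. The part of this RNA in the values of NaIO3 member 1 was not tested. Among the 65 members it was the only one with such a level.

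Summed over the 2 NaIO3 members (10744 UMIs, where a count of 0 allows up to 279 CPM), 66 genes had enough counts for a ratio over the PBS members. Of these 6 lay wholly above 2 (9.09%) and 7 wholly below 0.5 (10.6%). Of 6 contractile genes outside the rule with enough counts, 3 lay wholly below 0.5 and none above 2. Genes could reach enough counts through the library where they were higher. Tpm1 and Mylk did so through PBS, so the count of 3 is only a description. The median log2 ratio of the 25 contractile genes outside the rule with at least 20 counts over all members was -1.46. The whole list, which holds genes that chose the members in both libraries, is given as a description. The median log2 ratio of the 28 contractile genes with at least 20 counts over all members was -1.76, beside 0.21 over all 2050 genes with that count. The median of the contractile genes was -2.50 for NaIO3 member 1 alone and -0.91 for NaIO3 member 2 alone. With trimmed mean of M-values (TMM) scaling, all genes together shifted to a median of -1.04, and the contractile median was -3.00. For 12 pericyte genes outside the rule the median was 1.78. For 13 pericyte genes with Rgs5 it was 1.59 over both NaIO3 members (0.35 with TMM scaling), 2.20 for member 1 alone and -0.075 for member 2 alone, so its direction rests on 1 cell. Myl9 was at 1955 CPM (1210 to 2988) in NaIO3 members and 7556 CPM in PBS members, a ratio of 0.259 (0.16 to 0.397). Crip1 was at 372 CPM in NaIO3 members and 3641 CPM in PBS members, and Tpm1 at 279 CPM in NaIO3 members and 2501 CPM in PBS members. Mylk was at 558 CPM in NaIO3 members and 2705 CPM in PBS members.

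The genes highest in the NaIO3 members came mostly from NaIO3 member 1. Sepp1, which codes for the selenium carrier selenoprotein P, was at 1862 CPM in NaIO3 members and 143 CPM in PBS members, and 19 of its 20 UMIs were in member 1. Bsg (basigin), a partner of lactate transporters, was at 9680 CPM in NaIO3 members and 1092 CPM in PBS members, a ratio of 8.87 (7.00 to 11.2), and member 1 held 93 of 104 UMIs. Bsg in member 2, at 11 UMIs, lay among the PBS members, whose highest level was 28.7 CP10K. Cxcl12, a chemokine of stromal cells, was at 1210 CPM in NaIO3 members and 155 CPM in PBS members, with 11 of 13 UMIs in member 1. The glucose transporter Slc2a1 was at 652 CPM in NaIO3 members and 126 CPM in PBS members, with all 7 UMIs in member 1. Bsg was at 2122 CPM in NaIO3 endothelial-rule and 4643 CPM in NaIO3 RPE-rule barcodes. Macrophage markers summed to 838 CPM and surface epithelium markers to 1675 CPM in NaIO3 members, against 114 and 175 CPM in PBS members, and the part of this RNA was not tested. Over the genes that could be ranked, 55 of 913 had the interval wholly above 1 and 29 wholly below 1.

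The barcodes kept out only by the limit on Myh11 plus Rgs5 differed between the libraries. The 26 NaIO3 barcodes had a median of 34667.5 UMIs, and 25 of them had Cdkn2a, with a median of 21 UMIs, and 25 had Col1a1, with a median of 26.5 UMIs. Gpr137b was in 11 and Tfap2b in 1 of them, and Chodl in none. The 11 PBS barcodes had a median of 3488 UMIs and no Cdkn2a UMI. Gpr137b was in 9 of them, Tfap2b in 10, Chodl in 5 and Crip1 in 3, with at most 2 Crip1 UMIs. By the cells with these genes, the PBS barcodes resembled the Crip1-low members with Myh11 at 0, and the NaIO3 barcodes did not. Other levels differed. Dcn was at 1303 CPM in the PBS barcodes and 527 CPM in Crip1-low members, and Tfap2b at 1375 and 409 CPM. Fibroblast markers summed to 2605 CPM in the PBS barcodes, against 762 CPM in all PBS members.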

How the data were processed

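Single-cell RNA was measured in 2 libraries, 1 of NaIO3-treated and 1 of PBS-treated mice, each from eyes of 6 mice. The authors deposited raw UMI counts per gene and barcode, made with Cell Ranger 3.0.2 on mm10, per the submitters' processing notes, and the deposited counts were used without change. The options of the alignment are not known here. The NaIO3 library held 4058 barcodes and 51168520 UMIs, and the PBS library 4618 barcodes and 51055592 UMIs. After the limits on genes and mitochondrial counts, 3944 and 4387 barcodes were kept. Member counts were summed per library, levels given as CPM with exact Poisson intervals, and ratios with exact conditional binomial intervals, all at 95%. A ratio was counted as above or below where its whole interval lay above 2 or below 0.5. Cells were thinned to 2500 UMIs for shares of cells with a UMI, and no cell was left out. Doublets were scored with Scrublet in scanpy 1.11.5, the highest 0.8% for each 1000 barcodes were marked, and marked barcodes were kept. TMM factors came from edgeR 4.0.16 as an alternative only. Of 532 list genes 531 matched the files. With 1 library per group there was no test. Members and gene lists were chosen with earlier results of these data known. Named genes were the rule genes and mural markers, the 20 with the highest lower bound over other PBS barcodes, the 15 highest and 15 lowest between libraries, and up to 5 per list. The Crip1 split, genes named beside it and single cells were chosen after their values were seen. Some genes are not reported here. The ratio step was tested on simulated counts.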

Additional observations from a re-analysis of the deposited data

How the results depend on the processing

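With 1 library per group no spread between mice is known, and the NaIO3 values rest on 2 cells. The NaIO3 share lay between 0.0254 and 0.101% over its alternatives, inside its counting interval. The PBS share was 1.89% with a mitochondrial limit of 10%, 0.912% with Myh11 plus Rgs5 of at least 10 CP10K, 0.980% with RPE genes under 30 CP10K, and 0.416% over barcodes at least as deep as the lowest NaIO3 barcode. Genes wholly above 2 in PBS members over other PBS barcodes numbered 329 with Myh11 plus Rgs5 of at least 10 and 207 with the depth limit, where 113 lay wholly below 0.5. The contractile median between libraries kept its sign under every alternative run. It was -3.00 with TMM scaling, -2.50 and -0.91 for NaIO3 members 1 and 2 alone, -2.65 and -0.96 with summed genes of at least 20 and at least 80, and -2.85 with Myh11 plus Rgs5 of at least 10. The pericyte median was 0.35 with TMM scaling, 2.20 and -0.075 for members 1 and 2 alone, 0.55 and -0.18 with summed genes of at least 20 and at least 80, 0.44 with Myh11 plus Rgs5 of at least 1, 0.89 with no Dcn plus Lum limit, 0.77 with RPE genes under 30, and 2.94 with the depth limit. Gadd45g was -2.34 for member 1 alone and -2.62 with Myh11 plus Rgs5 of at least 10. For member 2 alone and with summed genes of at least 80, Pltp was -0.52 and -0.47, Nfkbia -1.06 and -0.99, and Slc2a1 -0.35 and -0.0071. Over all gene lists, 84 of 596 alternative medians had another sign than the main value. The contractile and pericyte sums had an r of 0.016 in PBS members only. The depth limit, the single NaIO3 members and the omission of the member in the doublet share were chosen after seeing the data. The cause of these shifts was not tested. No paired analysis was possible because each group is 1 library.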
